A study of Mus musculus with 11 samples.

Results

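The 33 genes described here encode enzymes and regulators of sterol and fatty acid synthesis. They were taken by symbol from a list, and all 33 were present among the 27998 genes counted in each of the 11 libraries. By role they comprise 8 genes of the mevalonate pathway to squalene, 11 genes of the steps from squalene to cholesterol, 3 genes of sterol sensing and transport, and 11 genes of fatty acid synthesis, elongation and desaturation.

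Cholesterol and fatty acids are both built from cytosolic acetyl-CoA. Sterol synthesis runs through mevalonate and isoprenoid intermediates to squalene, which is closed into lanosterol and then trimmed to cholesterol, and the transcription factor SREBP2 switches these genes on together when the membrane of the endoplasmic reticulum is poor in sterol. Fatty acid synthesis runs through malonyl-CoA to saturated chains that are then elongated and desaturated, largely under SREBP1 and the liver X receptors. Macrophages handle large amounts of lipid from dead cells, surfactant and lipoproteins, so that uptake, efflux and synthesis of sterols are closely linked in them.

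The libraries are 10x Genomics 3′ single-cell RNA-seq of macrophages (macs) sorted from mice on a C57Bl/6 background, of both sexes and, by the study's general statement, 6 to 8 weeks old. Brain, colon, liver, lung and spleen each gave 1 library labelled Zeb2fl/fl (WT) and 1 labelled Fcgr1-crexZeb2fl/fl (Zeb2KO), and the liver gave a second Cre-negative control labelled Nr1h3fl/fl. All mice of the 10 paired libraries therefore carry the floxed Zeb2 allele, with Cre-negative littermates as WT. The labels name Fcgr1-cre for every Zeb2KO library, whereas the study's methods name Clec4f-cre for the liver and Itgax-cre for the lung; this difference could not be resolved here. By the study, Fcgr1-cre and Itgax-cre also act in other immune cells, and Clec4f-cre in a few B cells. It reports macs of Cre+ mice that kept 1 copy of Zeb2, in every organ but the brain. A Zeb2KO library can therefore hold such macs beside macs without Zeb2. Kupffer cells (KCs) were sorted as Clec4F+CD64+F4/80+CD45+ cells, alveolar macs (AMs) as CD11c+SiglecF+F4/80+CD64+CD45+ cells, microglia as CD45int F4/80+CD64+ cells, and colonic macs (CMs) and splenic macs (SMs) as CD45+Ly6C-Ly6G-SiglecF-CD64+F4/80+ cells. How many mice made up a library is not given in the sources used here.

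Each library held between 3097 and 7703 cells, the same numbers as in the labels, with 11133411 to 47400786 UMIs (counted RNA molecules) per library. After removal of poor-quality cells and of clusters of other cell types, 2830 to 6974 macs per library were kept, and UMIs were summed over them and scaled to CPM, each gene's count relative to all UMIs of the library's macs. The marker lists of microglia, KCs, AMs and SMs each had their highest summed level in the library pair so labelled, and the colon list was also high in KCs and microglia. Zeb2 itself was at 475 and 1747 CPM in WT and Zeb2KO microglia, 375 and 477 in CMs, 387 and 779 in KCs, 312 and 481 in AMs and 738 and 897 in SMs, with 514 in Nr1h3fl/fl KCs. It was thus higher in the library labelled Zeb2KO in 5 of 5 tissues, but a count of 3′ ends lies outside the floxed exon and does not check the deletion. At most 76 cell barcodes were shared by any pair of libraries. KC and AM libraries were sequenced on a NextSeq500 and the other libraries on a HiSeq, so instrument and tissue cannot be told apart across these groups of tissues.

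Within a tissue there was 1 library per genotype and hence no test. A gene was called higher or lower where log2 of (CPM in Zeb2KO + 1) over (CPM in WT + 1) was at least 1 in size and the higher library held at least 20 CPM, a 2-fold rule that was applied alike to all genes. In AMs, the rule called 2 members higher (Scd1, Fdps) and 5 lower (Hmgcs1, Mvd, Idi1, Cyp51, Stard4) among the 15 that reached 20 CPM, beside 4.37% of all 5812 such genes called higher and 7.33% called lower. In microglia, 1 of 7 members reaching 20 CPM was called lower (Fads1), beside 4.07% of 5922 genes lower and 4.27% higher. No member was called among the 19 that reached 20 CPM in CMs (background 1.07% higher and 0.489% lower), the 9 in KCs (3.38% and 1.15%) or the 14 in SMs (2.37% and 0.86%). With so few members in each comparison, a single call decides the share called. In AMs, the called members make up a larger share of the 15 than of all genes, and 3 of the 7 calls depended on the scaling, as given below.

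**Figure D1:**
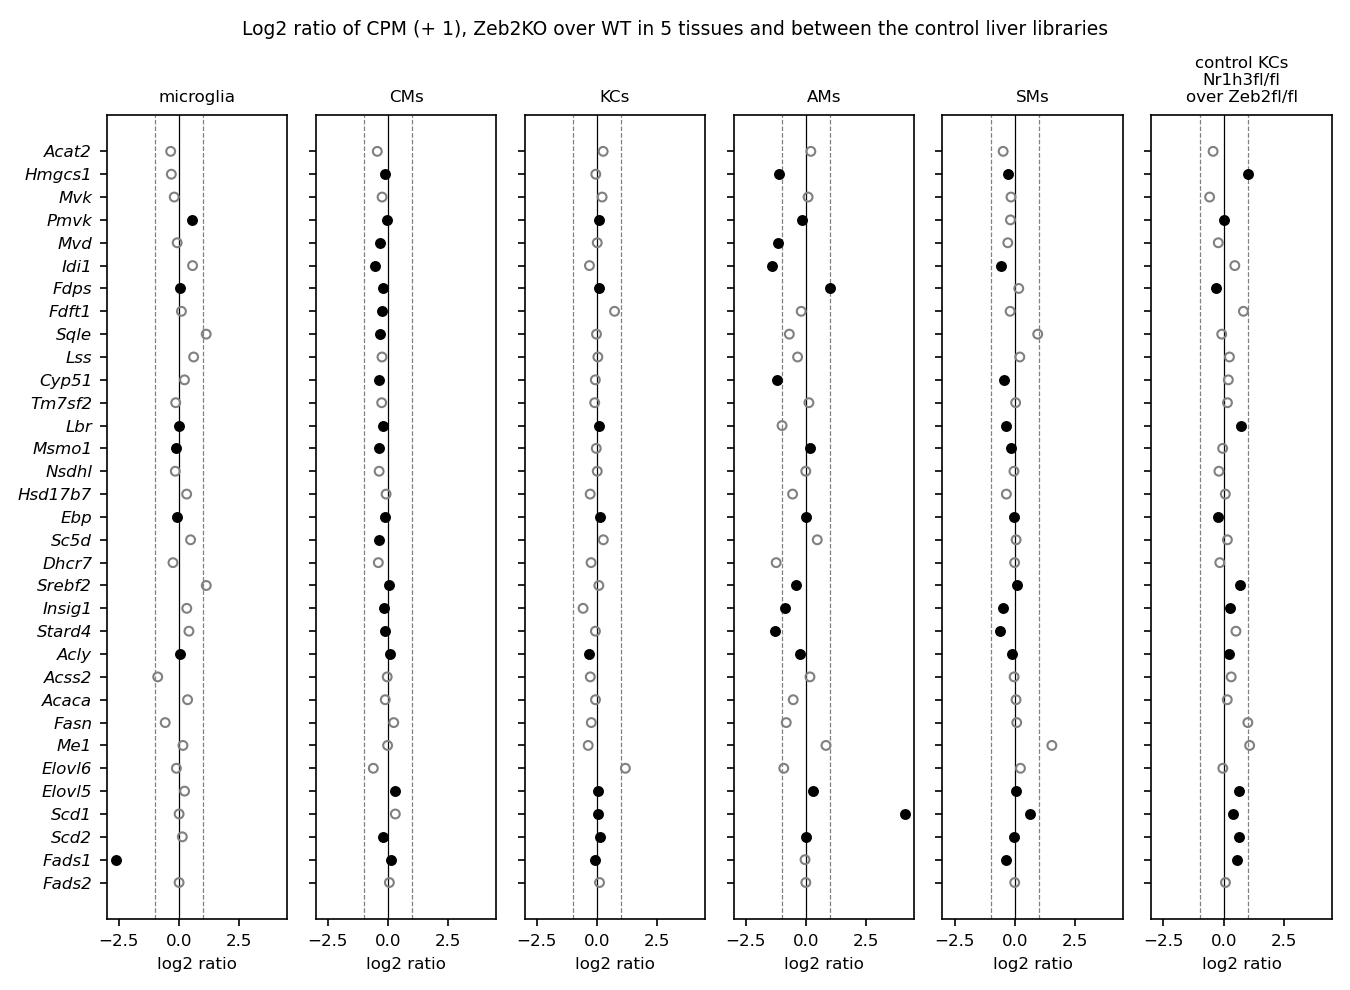
Log2 ratio of each gene on the x axis, Zeb2KO over WT in 5 tissues and Nr1h3fl/fl over Zeb2fl/fl between the control livers, with 1 CPM added to each level; filled points reached 20 CPM in the higher library, open points did not, and dashed lines mark 2-fold. Scd1 stands at 4.11 in AMs and Fads1 at −2.61 in microglia, while every filled point of CMs, KCs and SMs lies inside the dashed lines.

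In the sentences that follow, each pair of levels gives WT before Zeb2KO in CPM. Orders of WT tissues are by CPM with the Zeb2fl/fl library as the liver, and TMM factors, described below, can change them. The mevalonate pathway was most expressed in colon and lung, and in AMs several of its members were lower in the Zeb2KO library. The summed level of its 8 genes was 89.7 and 93.1 CPM in microglia, 371 and 313 in CMs, 84.8 and 90.3 in KCs, 255 and 179 in AMs and 125 and 103 in SMs, with 95.9 in Nr1h3fl/fl KCs. In WT macs, 6 of the 8 genes had their highest level in the colon and the other two in the lung, and none had its lowest level in either tissue.

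Acat2, the cytosolic thiolase that joins acetyl-CoA units, stood at 10.1 and 7.68 CPM in microglia, 13.5 and 9.63 in CMs, 3.29 and 4.14 in KCs, 4.99 and 5.93 in AMs and 3.49 and 2.22 in SMs, with 2.17 in Nr1h3fl/fl KCs. Hmgcs1 (chr13:119690379-119708260, plus strand, GRCm38, GENCODE M21), which makes HMG-CoA from them, stood at 16.9 and 13.3 CPM in microglia, 45.96 and 42.1 in CMs, 12.1 and 11.7 in KCs, 73.9 and 33.9 in AMs and 36.2 and 29.7 in SMs, with 25.3 in Nr1h3fl/fl KCs. WT AMs held the highest Hmgcs1 level of any library, and the level in Zeb2KO AMs was lower by 2.18-fold (95% Poisson interval 2.03 to 2.34), a log2 ratio of −1.10. Pmvk, which adds a phosphate to phosphomevalonate, was at 15.9 and 23.5 CPM in microglia, 63.8 and 61.7 in CMs, 23.3 and 25.2 in KCs, 40.9 and 36.4 in AMs and 14.97 and 13.1 in SMs, with 23.8 in Nr1h3fl/fl KCs, and its WT and Zeb2KO levels lay within a log2 ratio of −0.16 of each other in AMs. Mvd (chr8:122433601-122443422, minus strand), the decarboxylase that yields isopentenyl diphosphate, was at 8.92 and 8.39 CPM in microglia, 34.3 and 27.02 in CMs, 6.87 and 6.95 in KCs, 41.1 and 18.1 in AMs and 12.2 and 9.84 in SMs, with 5.75 in Nr1h3fl/fl KCs. The AM level of Mvd was lower in the Zeb2KO library by 2.28-fold (95% Poisson interval 2.07 to 2.51), while the 4 other tissues had log2 ratios between −0.33 and 0.01.

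Idi1 (chr13:8885501-8892451, plus strand), which turns isopentenyl into dimethylallyl diphosphate, was at 3.41 and 5.49 CPM in microglia, 52.4 and 35.7 in CMs, 8.81 and 6.92 in KCs, 47.5 and 17.5 in AMs and 28.4 and 19.04 in SMs, with 12.5 in Nr1h3fl/fl KCs. Its level in WT CMs was 15.4 times that in WT microglia, both sequenced on the HiSeq, and in AMs it was lower in the Zeb2KO library by 2.72-fold (95% Poisson interval 2.47 to 2.99). Idi1 was also below WT in CMs, KCs and SMs, with log2 ratios of −0.54, −0.31 and −0.55, none of which met the rule. Fdps (chr3:89093588-89101959, minus strand), which makes farnesyl diphosphate, was at 22.2 and 22.98 CPM in microglia, 119.6 and 103 in CMs, 21.2 and 22.6 in KCs, 20.6 and 42.6 in AMs and 11.8 and 13.4 in SMs, with 16.8 in Nr1h3fl/fl KCs. Unlike Mvd and Idi1, it was higher in Zeb2KO AMs, where the level was higher by 2.07-fold (95% Poisson interval 1.88 to 2.29), a log2 ratio of 1.02 that only just met the rule. Fdps overlaps the predicted gene Gm43738 on the same strand, which held at most 1 UMI in any library, so its counts carry that uncertainty. Fdft1, squalene synthase, was at 5.51 and 5.97 CPM in microglia, 25.8 and 21.4 in CMs, 2.63 and 5.04 in KCs, 17.8 and 15.5 in AMs and 11.7 and 10.2 in SMs, with 5.43 in Nr1h3fl/fl KCs. Its highest WT level, in CMs, was 9.78 times its lowest, in KCs, and no genotype difference met the rule. Mvk, mevalonate kinase, ranged from 4.07 to 15.4 CPM over the 11 libraries and never reached 20 CPM.

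**Figure D2:**
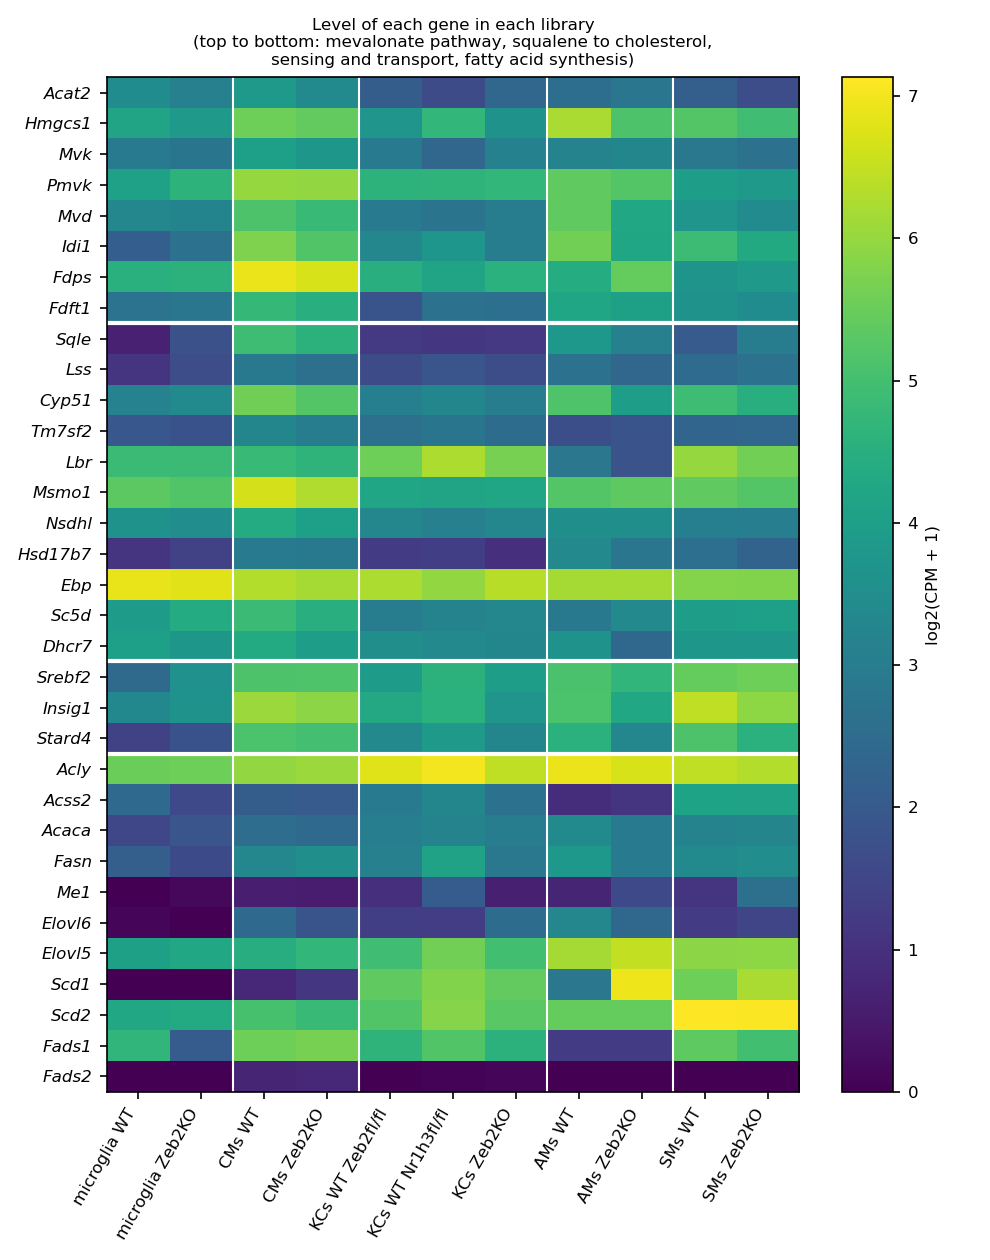
Heat map of log2(CPM + 1), with the 33 genes in rows and the 11 libraries in columns; horizontal white lines separate the 4 roles and vertical ones the tissues. The colon columns are the brightest for most mevalonate and squalene genes, the brain columns are dark for most fatty acid genes, and Scd1 differs between the AM columns.

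Of the 11 genes that carry squalene to cholesterol, 8 had their highest WT level in CMs. Their summed level was 240.4 and 237 CPM in microglia, 372 and 301 in CMs, 182 and 191 in KCs, 207 and 173 in AMs and 240.0 and 216 in SMs, with 201 in Nr1h3fl/fl KCs. In CMs all 11 were lower in the Zeb2KO library, each by less than the rule requires, and 1 of them was called in any tissue, Cyp51 in AMs.

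Sqle, the squalene epoxidase, was at 0.568 and 2.42 CPM in microglia, 29.2 and 23.2 in CMs, 1.32 and 1.29 in KCs, 12.9 and 7.67 in AMs and 3.12 and 6.98 in SMs, with 1.19 in Nr1h3fl/fl KCs. The level in WT CMs was 51.4 times that in WT microglia, where 7 UMIs were counted. Lss, which closes the epoxide into lanosterol, was at 1.14 and 2.25 CPM in microglia, 6.40 and 5.23 in CMs, 2.14 and 2.23 in KCs, 5.50 and 4.13 in AMs and 4.62 and 5.50 in SMs, with 2.71 in Nr1h3fl/fl KCs, under 20 CPM everywhere. Cyp51 (chr5:4081145-4104746, minus strand), the lanosterol demethylase, was at 7.95 and 9.45 CPM in microglia, 46.8 and 36.1 in CMs, 7.41 and 7.03 in KCs, 35.3 and 14.8 in AMs and 29.2 and 21.3 in SMs, with 8.63 in Nr1h3fl/fl KCs. In AMs it was lower in the Zeb2KO library by 2.39-fold (95% Poisson interval 2.15 to 2.66), a log2 ratio of −1.20, whereas in the other tissues the ratios ran from −0.44 in SMs to 0.22 in microglia. Msmo1, which removes methyl groups from the sterol ring with Nsdhl and Hsd17b7, was at 39.2 and 35.9 CPM in microglia, 101 and 77.4 in CMs, 17.5 and 17.2 in KCs, 36.1 and 40.5 in AMs and 40.8 and 36.2 in SMs, with 16.98 in Nr1h3fl/fl KCs. Hsd17b7 was at 1.14 and 1.65 CPM in microglia, 6.80 and 6.38 in CMs, 1.40 and 0.977 in KCs, 9.22 and 5.98 in AMs and 5.11 and 3.81 in SMs, with 1.52 in Nr1h3fl/fl KCs, under 20 CPM in all 11 libraries. Msmo1 peaked in CMs like most of these genes, and in AMs its WT and Zeb2KO levels differed by a log2 ratio of 0.16. Sc5d, a sterol desaturase, was at 14.03 and 19.9 CPM in microglia, 27.9 and 21.6 in CMs, 7.20 and 8.87 in KCs, 6.41 and 9.31 in AMs and 14.6 and 15.2 in SMs, with 8.14 in Nr1h3fl/fl KCs, with no difference that met the rule.

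Lbr, a sterol reductase that is also the lamin B receptor of the inner nuclear membrane, was at 27.97 and 28.3 CPM in microglia, 27.7 and 23.8 in CMs, 46.01 and 49.6 in KCs, 6.08 and 2.58 in AMs and 63.1 and 48.2 in SMs, with 76.1 in Nr1h3fl/fl KCs. It was the only 1 of the 11 genes from squalene to cholesterol with its highest WT level in SMs, at 10.4 times the lowest, in AMs. Microglia and CMs did not differ in Lbr beyond counting error. The control livers differed in Lbr by a log2 ratio of 0.71, whereas the Zeb2fl/fl and Zeb2KO KCs differed by 0.11. Of the 4 members left in this group, Ebp, the sterol isomerase, ranged from 54.3 to 119 CPM and was the only one of the 33 genes with its highest WT level in microglia. Dhcr7, a reductase of the closing step, ranged from 4.35 to 19.5 CPM, Nsdhl from 7.30 to 19.9, and Tm7sf2, another sterol reductase, from 2.30 to 8.68. Tm7sf2 overlaps Vps51 on the same strand and its counts are uncertain. Dhcr7 was under 20 CPM in AMs, at 11.6 and 4.35 CPM, with a log2 ratio of −1.23 that the rule therefore did not call.

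By CPM, the 3 genes of sterol sensing and transport all had their highest WT level in SMs and their lowest in microglia. Stard4 was slightly higher in CMs once kept clusters with markers of another cell type were left out (34.5 CPM in CMs and 33.2 in SMs). TMM factors, described below, were 1.18 for WT SMs and 0.863 for WT CMs. Dividing by them places CMs above SMs for each of the 3 genes, so the SM peak depends on the scaling. Srebf2, which encodes SREBP2, was at 4.54 and 11.1 CPM in microglia, 34.6 and 35.1 in CMs, 14.03 and 14.9 in KCs, 33.2 and 25.1 in AMs and 42.7 and 45.8 in SMs, with 23.01 in Nr1h3fl/fl KCs. Insig1, which holds the SREBP carrier in the endoplasmic reticulum and is itself an SREBP target, was at 9.08 and 11.6 CPM in microglia, 65.2 and 58.7 in CMs, 18.6 and 12.2 in KCs, 33.8 and 17.9 in AMs and 85.7 and 60.1 in SMs, with 22.7 in Nr1h3fl/fl KCs. Stard4, a soluble cholesterol carrier, was at 1.62 and 2.48 CPM in microglia, 33.9 and 30.8 in CMs, 9.18 and 8.75 in KCs, 22.6 and 8.80 in AMs and 34.4 and 22.3 in SMs, with 13.5 in Nr1h3fl/fl KCs. Each of the 3 was lower in Zeb2KO than in WT AMs, with log2 ratios of −0.39, −0.88 and −1.27, and Stard4 met the rule at 2.57-fold (95% Poisson interval 2.25 to 2.95) lower. In microglia each of the 3 was higher in the Zeb2KO library, Srebf2 by a log2 ratio of 1.13, at levels of at most 11.6 CPM that no call could be made from. Without the microglia clusters led by haemoglobin genes or with basophil markers, described below, Insig1 was at 3.70 and 11.6 CPM, its log2 ratio went from 0.32 to 1.42, and the sum of the 3 was 9.69 and 25.05 CPM. Over all kept macs, the 3 genes summed to 15.2 and 25.2 CPM in microglia, 134 and 125 in CMs, 41.9 and 35.8 in KCs, 89.7 and 51.8 in AMs and 163 and 128 in SMs, with 59.3 in Nr1h3fl/fl KCs.

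**Figure D3:**
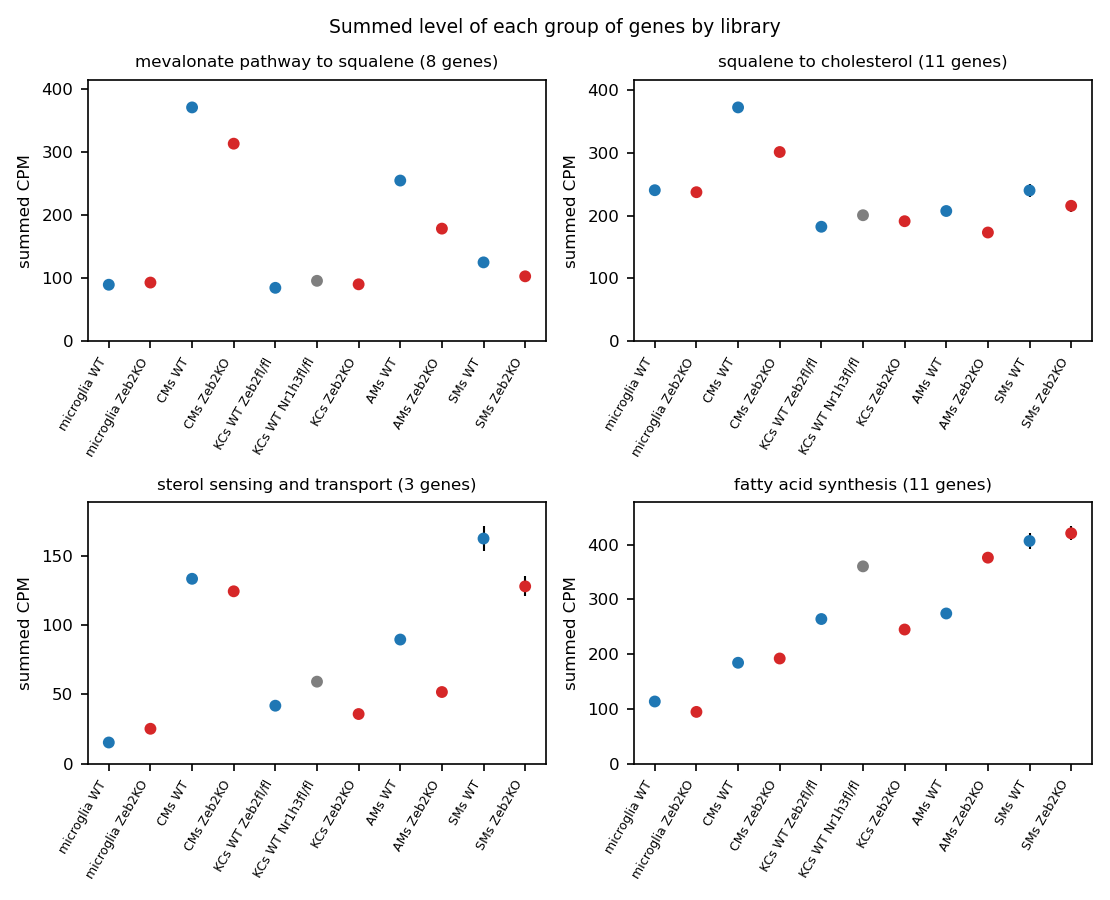
Summed CPM (y axis) of the genes of each role in each library (x axis), with blue for WT, red for Zeb2KO and grey for the Nr1h3fl/fl control; vertical lines are exact 95% Poisson intervals, which cover counting error only and are mostly smaller than the points. In CPM without TMM factors, CMs stand highest for both sterol synthesis groups, and SMs for sensing and transport and for fatty acid synthesis.

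Summed over all 22 sterol genes, the level was 345 CPM in WT and 355 in Zeb2KO microglia, 876 and 739 in CMs, 309 and 317 in KCs, 552 and 403 in AMs and 528 and 447 in SMs. In CMs, 21 of the 22 were lower in the Zeb2KO library, with a median log2 ratio of −0.25, and the exception was Srebf2 at 0.02. The CM difference was small for each gene, from −0.54 to 0.02. In SMs and in AMs, 16 of 22 were lower, with medians of −0.17 and −0.37. With TMM factors, described below, AMs had 10 above and 12 below 0 and a median of −0.12, and SMs had 7 and 15 and −0.16. The medians of all genes of at least 20 CPM were 0.05 in CMs, −0.02 in SMs and −0.31 in AMs, but the 22 include genes under that floor, so no difference between the medians was drawn. These counts stand without the share of all genes below 0, so they give direction only. Microglia and KCs had 13 and 12 of 22 above 0, with medians of 0.07 and 0.01. For scale, the log2 ratio of the same sum was −0.25 in CMs, −0.24 in SMs and 0.20 between the control livers. Neither control liver has a Zeb2 deletion. With TMM factors the ratio was −0.26, −0.23 and 0.10. Without kept clusters with markers of another cell type it was −0.26, −0.14 and 0.23. The margin over the control libraries thus depended on the scaling, and for SMs its direction depended on the cells included. Within clusters that held at least 30 cells of each library, the sterol sum was lower in Zeb2KO cells in 7 of 10 clusters of CMs and 3 of 7 of SMs, so the SM difference did not hold in most clusters. Other markers moved with the libraries: from WT to Zeb2KO CMs the colon list went from 41312 to 29625 CPM, the B cell list from 42.8 to 8.25 and the erythroid list from 42.7 to 4.51, and in SMs the endothelial list went from 173 to 72.2 and the plasma cell list from 27.4 to 79.3. Their part in the sterol values was not tested.

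The promoters of the sterol enzymes that were lower in Zeb2KO AMs are shown because SREBP2 and its partners NF-Y and Sp1 are known to act close to the start of such genes. RefSeq windows (build GRCm38.p6) were matched for 26 of the 33 members, and the 250 bases before the start that RefSeq gives are printed 5′ to 3′ on the gene's strand for Hmgcs1 (chr13:119690101-119690350, plus strand), Mvd (chr8:122443423-122443672, minus strand), Idi1 (chr13:8885356-8885605, plus strand) and Cyp51 (chr5:4104698-4104947, minus strand). GENCODE places the start of Idi1 and Cyp51 further upstream, so that 105 and 49 bases of their windows lie inside the GENCODE gene, and that of Hmgcs1 28 bases further downstream. Capitals mark matches, on either strand, to the sterol regulatory element core TCACNCCAC, the CCAAT box and the GC box GGGCGG.
Hmgcs1: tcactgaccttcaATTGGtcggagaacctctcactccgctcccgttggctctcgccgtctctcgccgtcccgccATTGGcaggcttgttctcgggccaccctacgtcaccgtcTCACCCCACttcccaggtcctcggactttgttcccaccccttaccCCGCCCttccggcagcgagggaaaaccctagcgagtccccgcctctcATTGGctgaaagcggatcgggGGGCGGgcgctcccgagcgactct
Mvd: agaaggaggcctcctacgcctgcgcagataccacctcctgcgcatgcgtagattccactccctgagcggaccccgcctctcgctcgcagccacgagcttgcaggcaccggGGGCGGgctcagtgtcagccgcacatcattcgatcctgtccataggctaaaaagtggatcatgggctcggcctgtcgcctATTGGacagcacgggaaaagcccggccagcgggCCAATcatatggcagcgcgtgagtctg
Idi1: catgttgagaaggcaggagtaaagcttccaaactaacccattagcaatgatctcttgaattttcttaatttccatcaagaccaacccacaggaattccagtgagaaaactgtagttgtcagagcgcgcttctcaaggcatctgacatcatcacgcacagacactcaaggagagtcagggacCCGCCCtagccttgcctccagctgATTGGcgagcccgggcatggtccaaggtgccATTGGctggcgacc
Cyp51: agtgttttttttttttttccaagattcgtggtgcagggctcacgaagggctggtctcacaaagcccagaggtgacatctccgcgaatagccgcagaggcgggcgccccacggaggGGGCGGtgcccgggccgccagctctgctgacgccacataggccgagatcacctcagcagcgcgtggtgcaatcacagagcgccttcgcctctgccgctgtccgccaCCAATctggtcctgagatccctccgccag
The CCAAT box was present in 21 of the 26 matched members and in 33.8% of all 32851 windows of this length, and the GC box in 21 members and 32.7% of all windows. Both stand in all 4 printed windows. All marked matches of Idi1, at 69, 45 and 14 bases before the RefSeq start, lie in the stretch inside the GENCODE gene. So does the CCAAT match of Cyp51, at 29 bases before the RefSeq start. The core TCACNCCAC, held by 1.05% of all windows, was found in Hmgcs1 alone, 137 bases before the start, and the E-box CACGTG, held by 6.02%, in 5 members (Dhcr7, Elovl5, Hsd17b7, Insig1 and Sc5d). These matches describe the letters in the windows and not binding.

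Fatty acid genes were ordered across tissues unlike the sterol genes. By CPM, 8 of the 11 had their lowest WT level in microglia, 5 their highest in AMs and 4 their highest in SMs. These counts take the Zeb2fl/fl library as the liver. Nr1h3fl/fl KCs stood above the highest of these WT levels for Acly (129 CPM), Scd1 (53.99 CPM), Fasn and Me1. Me1 in WT SMs and Zeb2fl/fl KCs did not differ beyond counting error. Without the kept clusters that carry markers of another cell type, 3 had their highest level in AMs, 3 in SMs and 3 in KCs (Acly, Acaca and Scd1). In the liver this leaves out a haemoglobin-led cluster with 45.5% of the filtered Zeb2fl/fl cells, which also had Clec4f among its leading genes. The summed level was 113 and 94.4 CPM in microglia, 184 and 192 in CMs, 264 and 245 in KCs, 274 and 376 in AMs and 407 and 421 in SMs, with 360.4 in Nr1h3fl/fl KCs. Single genes set the genotype differences of this sum in AMs and microglia: the other 10 genes summed to 268 CPM in WT and 255 in Zeb2KO libraries in AMs without Scd1 and to 88.5 CPM in WT and 91.2 in Zeb2KO libraries in microglia without Fads1. The largest genotype differences of all 33 genes, Scd1 in AMs and Fads1 in microglia, both belong here.

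Scd1 (chr19:44394455-44407879, minus strand) and its paralog Scd2 (chr19:44293674-44306864, plus strand) encode stearoyl-CoA desaturases, which make oleate and palmitoleate from saturated chains and lie close together. Scd1 was at 0 and 0 CPM in microglia, 0.768 and 1.18 in CMs, 40.95 and 41.8 in KCs, 6.08 and 122 in AMs and 46.5 and 73.3 in SMs, with 53.99 in Nr1h3fl/fl KCs. No Scd1 UMI was counted in microglia of either genotype, which places WT SMs at least 191-fold higher than WT microglia, taken against 3 UMIs per library, and at least 114-fold when the SM clusters with markers of B cells or neutrophils, described below, are left out. In AMs the Zeb2KO level was 20 times that of WT (95% Poisson interval 17.1 to 23.5), from 4537 UMIs against 167, the highest level of any library. KCs of the 3 liver libraries lay between 40.95 and 53.99 CPM, and SMs differed by a log2 ratio of 0.64. Scd2 was at 17.8 and 19.7 CPM in microglia, 32.2 and 27.5 in CMs, 35.4 and 38.9 in KCs, 42.3 and 42.2 in AMs and 139 and 137 in SMs, with 56.3 in Nr1h3fl/fl KCs. In AMs, Scd2 had a log2 ratio of 0.00. It became 0.72, at 42.3 and 70.6 CPM, without the largest Zeb2KO cluster, which had Krt8 and Krt18 among its 10 leading genes. The Scd1 ratio was then 3.48. Scd2 stayed highest in SMs of both genotypes. Reads that map to both paralogs can be lost in counting, so the levels of both carry that uncertainty.

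The share of AMs with at least 1 Scd1 UMI was 2.28% (exact 95% binomial interval 1.94 to 2.66) in WT and 37.1% (exact 95% binomial interval 35.9 to 38.3) in Zeb2KO, at median depths of 3587 and 5683 UMIs per cell. With every cell thinned to 2000 UMIs, the expected shares were 1.26% and 18.2%. For comparison, 0 of 2830 WT and 0 of 3243 Zeb2KO microglia had an Scd1 UMI, at median depths of 4202 and 4955 UMIs. The upper ends of the exact 95% binomial intervals were 0.130% and 0.114%, which bound detection at these depths. In CMs, with 0.768 and 1.18 CPM, the shares were 0.737% and 1.06%. In SMs the share was 8.78% (exact 95% binomial interval 7.82 to 9.81) in WT and 17.8% (exact 95% binomial interval 16.4 to 19.2) in Zeb2KO, and 7.17% and 11.96% after thinning, which left out 1386 and 960 shallower cells. Splenic B cells, which were removed by clustering, held Scd1 at 10.1 times the SM level in WT, and their markers remained in the SMs at a summed 257 and 168 CPM (6 of 8 listed genes present in the files). Kept among the SMs was a cluster in which all 6 B cell markers were detected, with Scd1 at 239 CPM in 201 WT and 197 in 136 Zeb2KO cells, and a cluster with the neutrophil markers Camp, Ngp and Ltf among its 10 leading genes, with 125 CPM in 703 Zeb2KO cells. Without both, Scd1 was at 27.7 CPM in WT and 43.9 in Zeb2KO SMs, a log2 ratio of 0.64. Among the 7 SM clusters with at least 30 cells of each library, Scd1 was higher in Zeb2KO cells in 3 and lower in 4, so the direction of its level varied between clusters.

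**Figure D4:**
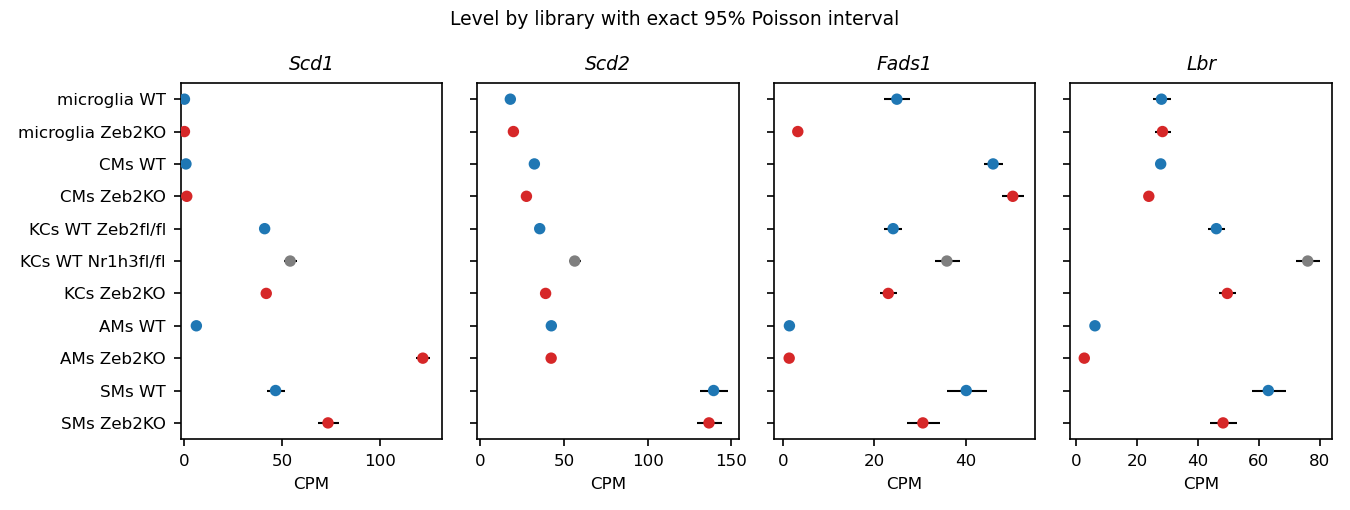
Level in CPM (x axis) of Scd1, Scd2, Fads1 and Lbr in each library (y axis), with horizontal lines for exact 95% Poisson intervals; blue is WT, red Zeb2KO and grey the Nr1h3fl/fl control. Scd1 is highest in Zeb2KO AMs, Scd2 in SMs of both genotypes, and Fads1 is at most 3.25 CPM in AMs of both genotypes and in Zeb2KO microglia.

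Fads1 (chr19:10182888-10196877, plus strand), which places the double bond that turns dihomo-gamma-linolenate into arachidonate, was at 24.9 and 3.25 CPM in microglia, 45.9 and 50.2 in CMs, 24.1 and 23.01 in KCs, 1.42 and 1.37 in AMs and 40.04 and 30.6 in SMs, with 35.8 in Nr1h3fl/fl KCs. In microglia, 307 UMIs in WT compare with 55 in Zeb2KO, 7.66-fold (95% Poisson interval 5.73 to 10.4) lower and a log2 ratio of −2.61. The other 4 tissues had log2 ratios between −0.38 and 0.13. Among WT tissues, Fads1 in CMs was 32.3 times that in AMs, and microglia and KCs did not differ beyond counting error. The share of microglia with a Fads1 UMI was 10.2% (exact 95% binomial interval 9.15 to 11.4) in WT and 1.67% (exact 95% binomial interval 1.25 to 2.17) in Zeb2KO, and 4.96% and 0.680% after thinning to 2000 UMIs. In WT AMs, where Fads1 was at 1.42 CPM, the share was 0.516%. Each of the 3 clusters of at least 30 cells in the WT microglia library held Fads1 at 20.2 to 28.4 CPM, and the 5 Zeb2KO clusters held 0 to 4.59 CPM. The clusters split the same 2 libraries, so these ranges restate the library difference and add no replication. The share of all genes with ranges this far apart is not given here. One of these WT clusters, with 1282 cells, was led by 4 haemoglobin genes, and another, with 82 cells, had Mcpt8 and Gata2, listed as markers of basophils and mast cells, among its 10 leading genes. Without both clusters Fads1 was at 28.2 CPM in WT and 2.86 in Zeb2KO microglia. The 22 Zeb2KO cells that fell in clusters of WT cells, most of them in those 2 clusters, held 7 Fads1 UMIs, or 54.8 CPM (95% Poisson interval 22.02 to 113). Fads2, the other desaturase of this route, was low everywhere, from 0 to 0.743 CPM.

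Many marker lists moved between the microglia libraries. The summed level of the 8 neutrophil markers was 1.05 CPM in WT and 96.2 in Zeb2KO, that of the 9 hepatocyte markers 1.22 and 60.5, that of the 8 erythroid markers 609.7 and 40.00, and that of the 7 microglia markers 28135 and 17185. The alveolar macrophage list was at 35.7 and 445 CPM, the dendritic cell list at 456 and 125, the platelet list at 91.2 and 12.5, and the genes of dividing cells at 58.5 and 132. Their part in the Fads1 difference was not tested.

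Elovl5, which elongates polyunsaturated chains, was at 15.6 and 18.5 CPM in microglia, 20.7 and 25.3 in CMs, 29.96 and 30.7 in KCs, 71.2 and 87.97 in AMs and 58.1 and 59.8 in SMs, with 47.9 in Nr1h3fl/fl KCs, with its highest WT level in AMs. Elovl6, which elongates palmitate, was at 0.0811 and 0 CPM in microglia, 4.47 and 2.59 in CMs, 1.52 and 4.73 in KCs, 8.93 and 4.27 in AMs and 1.37 and 1.80 in SMs, with 1.46 in Nr1h3fl/fl KCs, and WT AMs were at 110.1 times the level of WT microglia (exact 95% interval 19.6 to 4367), where 1 UMI was counted. The log2 ratio of Elovl6 was 1.18 in KCs, at a level under 20 CPM. Acss2, which makes acetyl-CoA from acetate, was at 4.46 and 1.95 CPM in microglia, 3.26 and 3.16 in CMs, 6.83 and 5.47 in KCs, 0.911 and 1.15 in AMs and 16.6 and 16.3 in SMs, with 8.74 in Nr1h3fl/fl KCs. Acaca, the acetyl-CoA carboxylase, was at 1.86 and 2.66 CPM in microglia, 4.82 and 4.37 in CMs, 7.28 and 6.95 in KCs, 9.73 and 6.47 in AMs and 8.11 and 8.46 in SMs, with 8.19 in Nr1h3fl/fl KCs. Me1, the malic enzyme that supplies NADPH, was at 0 and 0.118 CPM in microglia, 0.512 and 0.495 in CMs, 0.988 and 0.547 in KCs, 0.656 and 1.96 in AMs and 1.12 and 5.18 in SMs, with 3.20 in Nr1h3fl/fl KCs. None of these 5 genes met the rule in a Zeb2KO comparison, and among Acss2, Acaca and Me1 no level reached 20 CPM. Me1 in SMs had the largest ratio of these 3 genes, 1.54, from 9 and 49 UMIs. Acly, which cleaves citrate to acetyl-CoA, ranged from 45.2 to 129 CPM, and Fasn, fatty acid synthase, from 2.01 to 16.2 CPM.

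The control livers show how far these genes vary without a Zeb2 deletion. Between Nr1h3fl/fl and Zeb2fl/fl KCs the rule called 0.505% of 5548 genes higher and 0.829% lower, and 1 of 12 members that reached 20 CPM, Hmgcs1, was higher by 2.09-fold (95% Poisson interval 1.80 to 2.43), a log2 ratio of 1.005 that just met the rule. Fasn and Me1 had log2 ratios of 1.01 and 1.08 under the floor of 20 CPM. The summed fatty acid level was 264 CPM in Zeb2fl/fl, 360.4 in Nr1h3fl/fl and 245 in Zeb2KO KCs, and 10 of the 11 genes were higher in Nr1h3fl/fl than in Zeb2fl/fl KCs. Fads2 is among the 10 by 1 UMI against 0. The share of all genes above 0 is not given here. Their median log2 ratio, at 20 CPM or more, was 0.08, and TMM factors shift the ratios by −0.10. The log2 ratio of the summed fatty acid level to Zeb2fl/fl KCs was 0.45 for Nr1h3fl/fl and −0.11 for Zeb2KO KCs. Without the KC clusters led by haemoglobin genes or with dendritic cell markers, the ratios were 0.21 and −0.37, so which library lay farther from the Zeb2fl/fl control depended on the cells included. The haemoglobin-led cluster held 45.5% of the filtered Zeb2fl/fl cells but 2.52% of the Zeb2KO cells, so this setting removes the libraries unequally. It also had the KC marker Clec4f among its 10 leading genes, and its macrophage markers were not lower than in other clusters. Set against the Nr1h3fl/fl control instead, the Zeb2KO KCs had Hmgcs1 called lower, at a log2 ratio of −1.05, 1 of 12 members beside 3.95% of 5745 genes lower and 4.18% higher. These comparisons share libraries and are not independent. The log2 ratio between the control livers correlated with transcript length across 5396 genes (Spearman's rho 0.51, a description over genes of the same libraries), and the early response genes of dissociation summed to 1201 CPM in Zeb2fl/fl, 501 in Nr1h3fl/fl and 2242 in Zeb2KO KCs. The part of either in the member values was not tested. In Zeb2KO KCs, 9 of 15 genes of dividing cells were called higher, from a summed 169 to 542 CPM, while no member was.

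In AMs, how the libraries are scaled changed several calls. The median log2 ratio of all genes was −0.31, and TMM factors, which align the bulk of genes, moved AM ratios up by 0.27, and by less where the 1 CPM added weighs on a low gene. With them 6.37% of 5860 genes were called higher and 3.38% lower, and the members called were Scd1 (4.38) and Fdps (1.28) as higher and Idi1 (−1.13) and Stard4 (−1.02) as lower. Hmgcs1, Mvd and Cyp51 stood at −0.83, −0.88 and −0.95 and lost their calls. In the other comparisons the factors left Fads1 called in microglia (background 4.98% higher and 3.51% lower) and no member in CMs (1.13% and 0.537%), KCs (3.2% and 1.31%) or SMs (2.4% and 0.864%). The Hmgcs1 calls that involve the Nr1h3fl/fl library were lost (0.213% and 0.978% between the control livers, 4.84% and 2.91% for Zeb2KO KCs against Nr1h3fl/fl). The count of members above and below 0 in AMs was 10 and 22 without the factors, with Fads2 at 0 in both libraries, and 17 and 15 with them. The AM ratios were also lower for longer transcripts (Spearman's rho −0.32 across 5659 genes, a description), and beside the members the neutrophil markers went from 24.6 to 240.1 CPM, those of AMs from 10874 to 23965 and those of adipocytes from 345 to 158. Of 10 early response genes of dissociation, 3 were called higher and 1 lower in AMs, and 5 were called lower in SMs. Their part in the member values was not tested.

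Clusters of AMs were compared next, since most Zeb2KO cells lay apart from WT cells: 5650 of 6251 fell in clusters made up nearly wholly of Zeb2KO cells. Clusters of nearly only WT cells were not set apart. Clusters were built from variable genes other than the members, but they divide the same 2 libraries, so these values are a description. In the 5 clusters with at least 30 cells of each library, which together held 4803 WT and 2248 Zeb2KO cells, Scd1 was higher in the Zeb2KO cells in 5 of 5, at 5.71 to 8.55 CPM in WT and 47.2 to 63.8 in Zeb2KO cells. These 5 include 1 cluster that is itself made up nearly wholly of Zeb2KO cells and supplied most of the 2248. It held 1.23% of the filtered WT and 27.5% of the filtered Zeb2KO cells. Cyp51, Hmgcs1, Stard4, Sqle, Dhcr7, Nsdhl and Elovl6 were lower in 5 of 5, with log2 ratios of −1.65 to −0.87 for Cyp51 and −1.14 to −0.04 for Hmgcs1. The smallest Nsdhl difference was a log2 ratio of −0.0017. Idi1 and Mvd were lower in only 2 and 3 of the 5, and Fdps was higher in 4. Of the 5812 genes of at least 20 CPM in AMs, 18.4% were lower and 7.57% higher in 5 of 5, beside 3 of the 15 members past that floor lower (Cyp51, Hmgcs1, Stard4) and 1 higher (Scd1), so the share of members lower throughout was near the background. With TMM factors, 5.26% of these genes were lower and 19.1% higher in 5 of 5. Of the members, Cyp51 and Stard4 were then still lower in 5 of 5 and Scd1 higher, Ebp became higher in 5 of 5, and Hmgcs1, Sqle, Dhcr7, Nsdhl and Elovl6 were no longer lower in all 5. The largest Zeb2KO cluster had Krt8 and Krt18, listed as markers of gut epithelium, among its 10 leading genes. It held 52.3% of the filtered Zeb2KO cells and 0% of the WT cells, and its macrophage markers were not lower than in other clusters. Without this cluster, 4 members kept their calls (Idi1, Cyp51 and Stard4 lower, Scd1 higher, at 6.08 and 77.9 CPM). The share of all genes called without this cluster is not given here. The AM ratio of Lbr, under 20 CPM, was −0.29 without it and −0.99 with it.

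The other 601 Zeb2KO AMs lay outside the clusters made up nearly wholly of Zeb2KO cells, 253 of them in the dividing cluster. For Scd1, Idi1 and Hmgcs1 their levels were between those of WT AMs and of the other Zeb2KO AMs. Scd1 was at 61.9 CPM in them, 128 in the other Zeb2KO AMs and 6.08 in WT AMs. Idi1 was at 32.1, 15.98 and 47.5 CPM, and Hmgcs1 at 46.4, 32.6 and 73.9 CPM. Among clusters of Zeb2KO cells, Scd1 was highest in the one led by Sdr16c6, Cldn7 and Penk, at 202 CPM in 413 cells, and stood at 149 CPM in the largest, with 3281 cells and led by Ceacam10, Auts2 and Cd177. Scd2 differed from this pattern, with 24.5 CPM in the largest cluster and 95.8 in a cluster of 1729 Zeb2KO cells of which it was itself a leading gene.

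**Figure D5:**
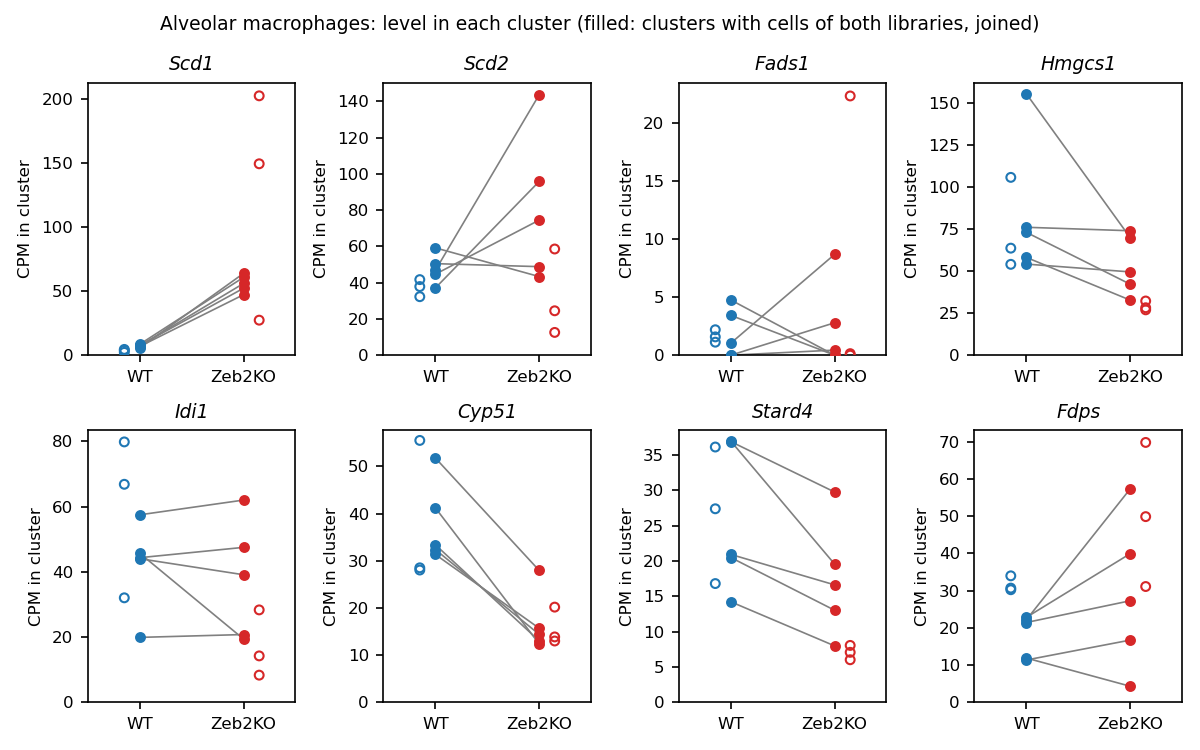
Level in CPM (y axis) of 8 members in each AM cluster of at least 30 cells, for WT (blue) and Zeb2KO cells (red); filled points are clusters with cells of both libraries, joined by a line, and open points clusters with cells of 1 library. Every Scd1 line runs upward from WT to Zeb2KO cells and every Cyp51 line downward, while lines for Idi1 and Scd2 run in both directions.

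Whether any member moved alike in all tissues was tested over the 5 WT and Zeb2KO pairs with the tissue as a block, which is the only replication in this design. edgeR's quasi-likelihood test called 0 of 14028 genes (0%) at an adjusted p of 0.05, with 1584 at an unadjusted p under 0.05, and DESeq2 called 360 (2.57%). None of the 33 members was called by either, and Fads2 had no adjusted p in DESeq2. Hmgcs1 was lower in 5 of 5 tissues, by −0.33 ± 0.13 on the log2 scale, at an edgeR adjusted p of 0.412. Values after ± are standard errors derived from the F statistic of the edgeR fit, not the spread of the 5 pairs. Dhcr7 had −0.42 ± 0.17 with an edgeR adjusted p of 0.439, and no other member had an unadjusted p under 0.05. For Scd1, the fit gave 1.31 ± 0.85 with an edgeR adjusted p of 0.590, where its log2 ratios were 4.11 in AMs and 0.00 to 0.64 in the other 4 tissues.

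Other genes of these routes were counted by the same rule. Of 10 further sterol enzymes and of 12 genes of SREBP regulation and sterol uptake, 0 were called in any of the 5 tissues. Of 22 further fatty acid enzymes, 1 was called higher and 2 lower in microglia and 1 higher and 3 lower in AMs, with 0 in the other 3 tissues. Hacd2, a dehydratase of fatty acid elongation, was higher in both, at 66.3 and 238 CPM, a log2 ratio of 1.83 in microglia and 18.9 and 114 CPM, a log2 ratio of 2.52 in AMs. Acsl4, an acyl-CoA synthetase that favours arachidonate, was lower in both, at 22.9 and 10.2 CPM, a log2 ratio of −1.09 in microglia and 52.1 and 22.4 CPM, a log2 ratio of −1.18 in AMs. Thrsp, a lipogenic protein, was lower in microglia, at 93.7 and 31.96 CPM, a log2 ratio of −1.52. Hacd3 and Lpin1, a phosphatidate phosphatase, were lower in AMs with log2 ratios of −1.05 and −1.14, and with TMM factors Hacd3, Lpin1 and Acsl4 lost their calls in AMs. Of 6 liver X receptor and efflux genes, Abca1, the cholesterol exporter, was lower in microglia, at 89.4 and 37.3 CPM, a log2 ratio of −1.24, and Apoe, the apolipoprotein that carries lipid out of macs, was higher in AMs, at 13.8 and 1553 CPM, a log2 ratio of 6.71.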

How the data were processed

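The authors sorted macs by flow cytometry, made 10x Genomics 3′ libraries and counted UMIs per cell and gene with Cell Ranger, aligning to mm10. The deposited values are these raw counts, 1 table per library, with nothing pooled. Each sample took its group from its title. Here, cells more than 3 median absolute deviations from their library's median in log UMIs or log genes, or above it in mitochondrial share, were removed (4.66 to 9.22% per library). Each tissue was clustered (scanpy 1.11.5, Leiden resolution 0.8) and clusters of other cell types, up to 23.3% of a library in spleen, were left out; no doublet caller was run, and leaving out the 5% of cells with the most UMIs was an alternative. UMIs were summed per library over 8017183 to 42951319 kept UMIs and scaled to CPM, so 3 UMIs, the limit that a count of 0 allows, are 0.0698 to 0.374 CPM. Poisson and binomial intervals are exact and cover counting error only.

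The members and all gene lists were chosen with earlier results of these data known. All 33 members are accounted for: values in every library were given for members called in a Zeb2KO comparison or at least 4-fold apart between WT tissues (25 genes), and ranges for the other 8. The test across tissues used edgeR 4.0.16 (TMM, quasi-likelihood, tissue as block), with DESeq2 1.42.0 as an alternative, and was tested on simulated data. With 1 library per tissue and genotype, the pairs of tissues are the only replication, and whether a library pooled mice is not stated. Other cell sets, scalings, pseudocounts, floors and thresholds were tried. Removing the median ratio of genes of like transcript length was an alternative chosen after seeing the data. So was leaving out clusters made up nearly wholly of Zeb2KO cells, with a share of the Zeb2KO library at least 9 times that of WT. Leaving out kept clusters with markers of another cell type (at least 2 among the 10 leading genes or 3 detected) was also chosen after seeing the data. Gene positions and lengths are from GENCODE M21 (GRCm38), promoters from RefSeq.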

Additional observations from a re-analysis of the deposited data

Results flagged for a closer look

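Members were also measured in the clusters that were left out as other cell types. For 8 values of 20 CPM or more, the ratio to the macs of the same library had a counting interval that lay wholly above 4. Stard4 in the endothelial clusters of the liver passed 4-fold without meeting this, at 46.1 CPM in the Zeb2fl/fl and 42.8 CPM in the Zeb2KO library. These levels were 5.02 and 4.89 times those in KCs, with lower interval ends of 3.41 and 3.89. In the spleen, Scd1 stood at 469 CPM in the B cell clusters of the WT library (639 cells) and 334 CPM in those of the Zeb2KO library (382 cells), 10.1 and 4.56 times the level in SMs. In the colon, Scd1 was at 26.5 CPM in the fibroblast clusters of the WT library and 25.6 CPM in those of the Zeb2KO library, against 0.768 and 1.18 CPM in CMs. Me1 was at 22 CPM in the fibroblast clusters of WT colon, against 0.512 in CMs. In the Nr1h3fl/fl liver library, the 101 cells of the hepatocyte cluster held Hmgcs1 at 144, Fasn at 148 and Me1 at 68.8 CPM, against 25.3, 16.2 and 3.20 CPM in KCs of that library. These 3 genes are also those with the largest ratios between the control livers. The hepatocyte markers still summed to 93.3 CPM in the Zeb2fl/fl, 138 in the Nr1h3fl/fl and 58.8 in the Zeb2KO KCs that were kept, and their part in those ratios was not tested.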

How the results depend on the processing

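Counts of called members stayed within 1.5 times the main count in 61 comparisons with another setting and moved further in 14. In AMs, where 7 members were called, TMM factors left 4 (Idi1, Fdps, Stard4, Scd1) and a floor of 50 CPM 2 (Hmgcs1, Scd1). Taking off the median of genes of like length left 4 (Mvd, Idi1, Fdps, Scd1). Leaving out kept clusters with markers of another cell type, among them the largest Zeb2KO cluster, left 4 (Idi1, Cyp51, Stard4, Scd1). Leaving out clusters made up nearly wholly of Zeb2KO cells left 2 (Cyp51, Scd1). The last 3 settings were chosen after seeing the data. The last was not run in microglia, where 22 Zeb2KO cells would be left. Shares of all genes called were computed only for the main rule and with TMM factors. Counts of members under the other settings therefore stand without a background. Fdps also lost its AM call with every barcode and with a pseudocount of 5 CPM, Mvd with that pseudocount, and Hmgcs1 with each cell weighing the same. Scd1 was called in AMs under every setting tried, and Fads1 in microglia under every setting except the floor of 50 CPM, which left 0. In microglia, floors of 5 CPM and of 0 gave 2 and 3 calls. In KCs, no floor gave 1 (Elovl6) and the Nr1h3fl/fl control 1 (Hmgcs1). In SMs, a floor of 5 CPM or none gave 1 (Me1) and a log2 threshold of 0.58 gave 2 (Stard4, Scd1). Leaving out the clusters made up nearly wholly of Zeb2KO cells gave 1 (Scd1) in SMs. Of the summed log2 ratios, 58 stayed within their counting interval and 14 did not: with TMM factors the sterol sum was 0.13 in microglia and −0.18 in AMs and the fatty acid sum 0.73 in AMs. With the Nr1h3fl/fl control the KC sums were −0.17 for sterol and −0.56 for fatty acid genes. With every barcode the fatty acid sum was 0 in CMs and −0.05 in SMs, and with clusters of other cell types kept it was −0.06 in SMs. Without the clusters that carry markers of another cell type, the sterol sum was −0.04 in microglia, where it is otherwise above 0, −0.36 in AMs and −0.14 in SMs, and the fatty acid sum −0.43 in microglia, −0.37 in KCs and 0.33 in AMs. Leaving 1 gene out of the fatty acid sum, also chosen after seeing the data, gave −0.08 in AMs without Scd1, where it is otherwise 0.46, and 0.04 in microglia without Fads1, where it is otherwise −0.26. With that gene and the clusters with markers of another cell type both left out, it was −0.01 in AMs and −0.12 in microglia. The sterol sum was below 0 in CMs, AMs and SMs under all 8 settings. Across tissues, 0 members were called under each alternative, and leaving out each tissue pair in turn gave 0 to 0. The cause of these changes was not tested beyond what each setting itself alters. The floor of 20 CPM, a chosen limit, left 1 AM difference past 2-fold uncalled (Dhcr7), while depth limits genes of few UMIs, such as Scd1 in microglia at 0.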

Other observations

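Lbr was higher in clusters of dividing cells than in the other macs in each of the 7 libraries with at least 30 such cells, and the 29 dividing cells of Zeb2KO microglia were not measured. The levels were 70.4 and 26.05 CPM in WT CMs, 65.97 and 21.9 in Zeb2KO CMs, 89.1 and 44.1 in Zeb2fl/fl KCs, 112 and 42.9 in Zeb2KO KCs and 162 and 69.5 in Nr1h3fl/fl KCs. In AMs they were 66.6 and 3.67 CPM in WT and 21.1 and 1.64 in Zeb2KO cells, so that the low Lbr level of AMs was that of cells outside the dividing clusters. Ebp was the only other member that was higher in the dividing clusters in all 7. Lbr is not on the list by which dividing clusters were named.

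Mevalonate genes were also high in a liver cluster kept among the KCs that was led by Cd209a, Apol7c and Ubd, had the dendritic cell markers Cd209a and Flt3 among its 10 leading genes, and had no KC marker among them. There they summed to 212 CPM in 117 Zeb2fl/fl cells, 303 in 82 Zeb2KO cells and 142 in 118 Nr1h3fl/fl cells, beside 84.8 to 95.9 over all cells kept as KCs in each library. In the colon, the cluster led by Marco, Cxcl13 and Slc13a3 held 636 CPM in 181 WT cells and 393 in 846 Zeb2KO cells. These are values of clusters and were not tested.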
